A study of Mus musculus with 4 samples.

Results

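The genes described here are the 8 genes of arginine metabolism Arg1, Arg2, Nos2, Slc7a2, Ass1, Asl, Odc1 and Gatm, chosen by name from the 27998 genes listed for each library of CD45+ cells of the mouse nasal mucosa. Arginine is imported by cationic amino acid transporters, of which Slc7a2 encodes one that is inducible in macrophages. Arg1, the cytosolic arginase, and Arg2, the mitochondrial one, split arginine into urea and ornithine, and ornithine feeds polyamine synthesis through Odc1 (ornithine decarboxylase). Nos2, the inducible nitric oxide synthase, turns the same arginine into nitric oxide and citrulline, and Ass1 and Asl turn citrulline back into arginine. Gatm catalyses the first step of creatine synthesis, which also uses arginine. Arg1 is a known marker of macrophages exposed to IL-4 and IL-13 and is also made by group 2 innate lymphoid cells (ILC2), whereas Nos2 is known from phagocytes exposed to microbial products.

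The study made 1 single-cell library for each of 4 groups, always listed here as Vehicle, Vehicle-OVA, Ribavirin, Ribavirin-OVA, and 4 values in a row without group names are in that order. All mice were C57BL/6 and 8 weeks old, and the labels name no genetic alteration. OVA is ovalbumin, given with alum by intraperitoneal injection and then as nasal drops to produce allergic rhinitis, and ribavirin is an antiviral nucleoside analogue. The mice without OVA had received vehicle or ribavirin only, the dosing of ribavirin and the vehicle are not given in the sources used here, and neither is the number of mice pooled into a library. CD45 marks haematopoietic cells, and small clusters with epithelial, endothelial and olfactory neuron markers were found among the enriched cells.

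With 1 library per group there were no replicates and no test was possible, so that all intervals below are exact 95% intervals that cover counting error only, and the spread between mice is unknown. The deposited matrices held 28277, 19143, 21401 and 10311 cell barcodes with a median of 3389 to 4952 unique molecular identifiers (UMIs), and 22835, 16184, 18572 and 8470 cells remained after filtering. The shallowest deposited barcode held 1782 UMIs in Ribavirin and 500 or 501 in the other libraries. Vehicle-OVA also stood apart in its makeup, with 64.7% neutrophil-like cells against 29.3% to 34.6% in the others. Between 57 and 174 cell barcodes were shared by a pair of libraries. The 66061 cells fell into 42 clusters, of which 37 could be named from marker genes as 14 classes, written with "-like" because the names were rebuilt here. The 8 genes and the other genes of the pathway had been left out of the clustering. Levels are given as CPM, the UMIs of a gene per 1000000 UMIs of the same cells, which with 3' chemistry do not depend on transcript length. For shares of cells with a UMI, each cell was thinned to 1000 UMIs and cells with fewer were left out.

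The 8 genes lie on 6 chromosomes (GRCm38, GENCODE M21). Arg1 is at chr10:24915221-24927484 on the minus strand and Nos2 at chr11:78920787-78960254 on the plus strand. Arg2 is at chr12:79130777-79156301 and Slc7a2 at chr8:40862396-40922308, both on the plus strand, and both overlap an antisense gene that was also counted (Vti1b and Gm26584). Ass1 is at chr2:31470207-31520672 on the plus strand, Asl at chr5:130011258-130029247 on the minus strand, Odc1 at chr12:17544794-17551505 on the plus strand and Gatm at chr2:122594467-122611303 on the minus strand.

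Each member had its own distribution over the classes. Arg1, Slc7a2 and Gatm were highest in macrophage-like cells of the OVA libraries, Arg2 was highest in neutrophil-like cells of every library, and Nos2 was highest in neutrophil-like cells of Vehicle-OVA. Ass1 was highest in monocyte-like cells in 3 libraries, Odc1 in T cell-like, ILC2-like and plasma cell-like cells, and Asl was low in every class. The map of the 8 genes by class and library shows these patterns.

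**Figure D1:**
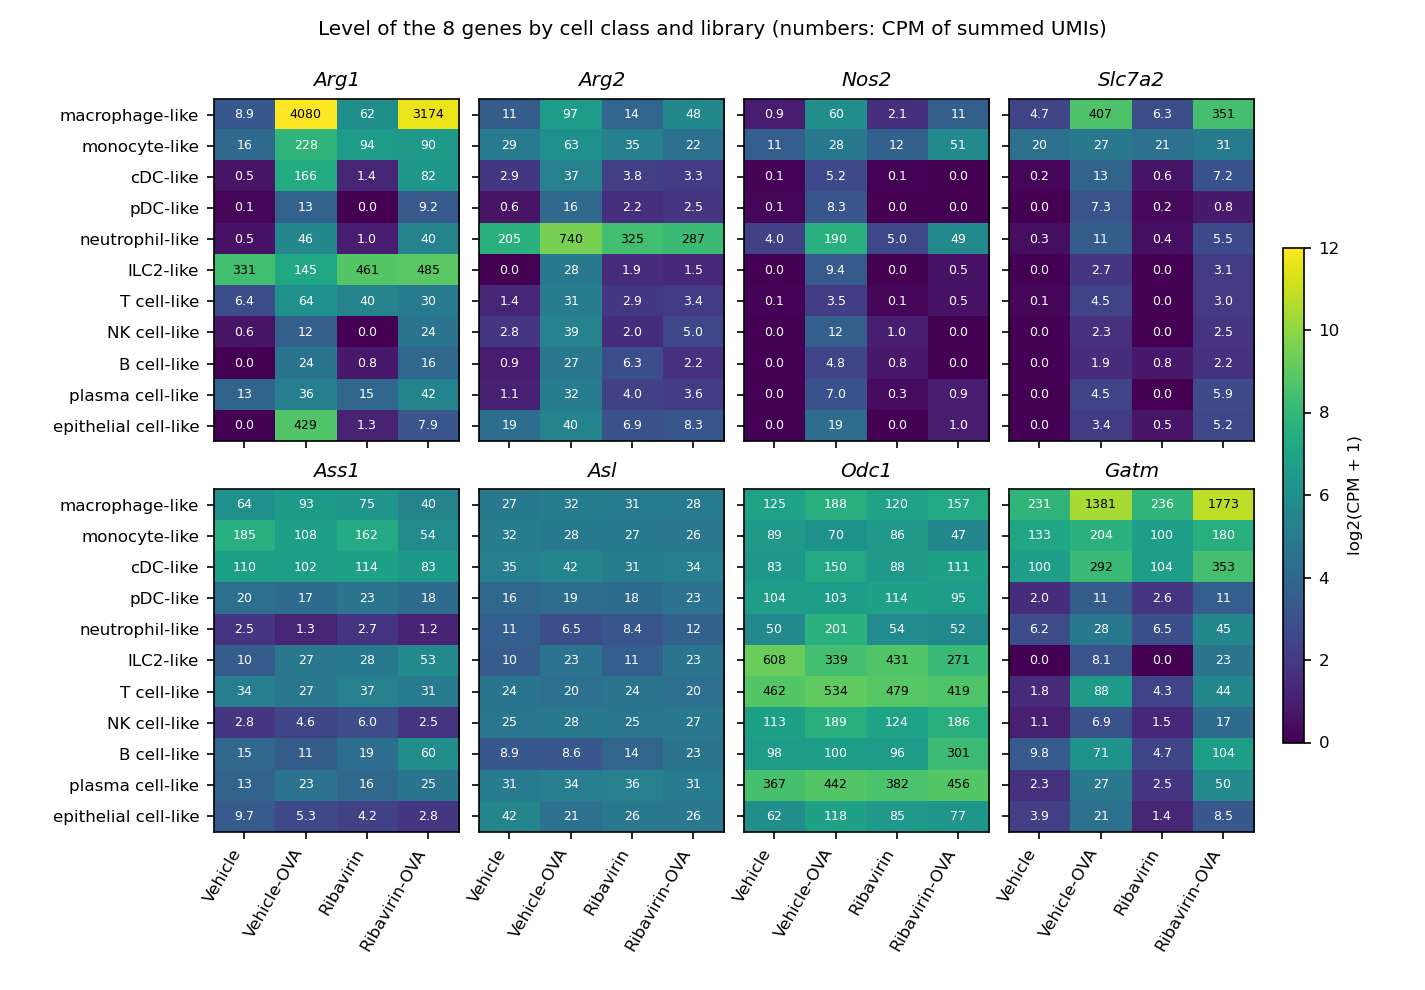
Heat maps of the 8 arginine metabolism genes, 1 panel per gene, with 11 of the 14 cell classes in the rows and the 4 libraries in the columns. The colour gives log2(CPM + 1) and the printed number the CPM of the summed UMIs. Arg1 in macrophage-like cells goes from 8.91 CPM in Vehicle to 4080 CPM in Vehicle-OVA, whereas Asl is at most 42.5 CPM in any class shown.

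To examine the arginase genes in macrophages, UMIs were summed over the macrophage-like cells, of which there were 2689, 2056, 2327 and 1590 (median 10214, 9637, 10306 and 9083.5 UMIs). Arg1 was at 8.91 CPM in Vehicle, 4080 in Vehicle-OVA, 62.2 in Ribavirin and 3174 in Ribavirin-OVA. Both OVA libraries were thus far above both libraries without OVA. The ratio was 458 under vehicle (404 to 521) and 51.0 under ribavirin (48.5 to 53.7). Between the libraries without OVA, Arg1 was 6.98-fold higher in Ribavirin (6.10 to 8.01), and between the OVA libraries it was at 0.778 of the Vehicle-OVA level in Ribavirin-OVA (0.770 to 0.786).

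The number of macrophage-like cells with Arg1 followed the same order as its level. A UMI of Arg1 was found in 0.784% (0.486 to 1.20), 74.2% (72.2 to 76.1), 2.84% (2.20 to 3.59) and 68.9% (66.5 to 71.3) of thinned macrophage-like cells. Without thinning the shares were 2.86%, 89.1%, 7.39% and 86.2%. In NK cell-like cells, which are not known to express Arg1, the thinned shares were 0%, 3.08%, 0% and 2.54%, at a median depth of 3392, 4854, 3881 and 5358 UMIs. In Vehicle the intervals of the 2 classes overlapped (up to 0.761% for NK cell-like cells), in Ribavirin they did not (up to 0.801%), and in the OVA libraries the macrophage-like shares were far above those of NK cell-like cells. The median macrophage-like cell held 0, 21, 0 and 14 Arg1 UMIs, and the highest cell held 18, 745, 96 and 545.

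In the libraries without OVA, Arg1 in macrophage-like cells came from few cells. In Vehicle, 6 cells with 10 or more UMIs held 31.3% of the Arg1 UMIs, and in Ribavirin 44 such cells held 1106 of 1518 UMIs (72.9%). With OVA, 1316 cells of Vehicle-OVA and 895 cells of Ribavirin-OVA held 10 or more. Macrophage-like cells held 94.3% of all Arg1 UMIs in both OVA libraries, but 24.3% in Vehicle and 37.3% in Ribavirin. In Vehicle, monocyte-like cells held 275 Arg1 UMIs, T cell-like 179, plasma cell-like 169 and ILC2-like cells 130, beside 249 in macrophage-like cells. In Ribavirin these were 1230, 840, 108 and 248, beside 1518. The plasma cell-like UMIs were spread over 140 of 1181 and 89 of 565 cells, with at most 4 in a cell.

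Macrophage-like cells made up 4 clusters, and the OVA libraries drew on another cluster than the libraries without OVA. Cluster 5, led by Ccl24, Arg1 itself, Spp1 and Fn1, held 0.893%, 92.0%, 2.79% and 88.1% of the macrophage-like cells. Cluster 4, led by C1q and MHC class II genes, held 74.3%, 4.72%, 67.5% and 6.98%, and cluster 15, led by Fcrls, Ccl7 and Cxcl13, held 24.8%, 3.31%, 22.8% and 4.78%. Cluster 36 came almost wholly from Ribavirin, where it held 6.96% of the class. In Vehicle-OVA and Ribavirin-OVA, 99.5% and 98.99% of the Arg1 UMIs of the class were in cluster 5.

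Within clusters 5, 4 and 15 Arg1 was also higher with OVA, whereas cluster 36 held at most 2 cells in an OVA library. In cluster 5 Arg1 was at 269 CPM in Vehicle, 4422 in Vehicle-OVA, 1258 in Ribavirin and 3614 in Ribavirin-OVA, a ratio of 16.5 under vehicle (12.8 to 21.5) and 2.87 under ribavirin (2.67 to 3.09), where Vehicle and Ribavirin had only 24 and 65 cells. In cluster 4 Arg1 was at 8.20, 305, 39.2 and 253 CPM, and in cluster 15 at 1.92, 176, 1.75 and 234 CPM. Cluster 15 was the one in which the Arg1 levels of Vehicle and Ribavirin had overlapping intervals (0.993 to 3.36 and 0.800 to 3.32 CPM), although its count was 12 and 9 UMIs. Taken without cluster 5, macrophage-like cells had an Arg1 ratio of 36.3 under vehicle and 7.69 under ribavirin, and the OVA libraries then stood at 0.996 of each other. What the free RNA of cluster 5 adds to the other clusters was not tested.

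**Figure D2:**
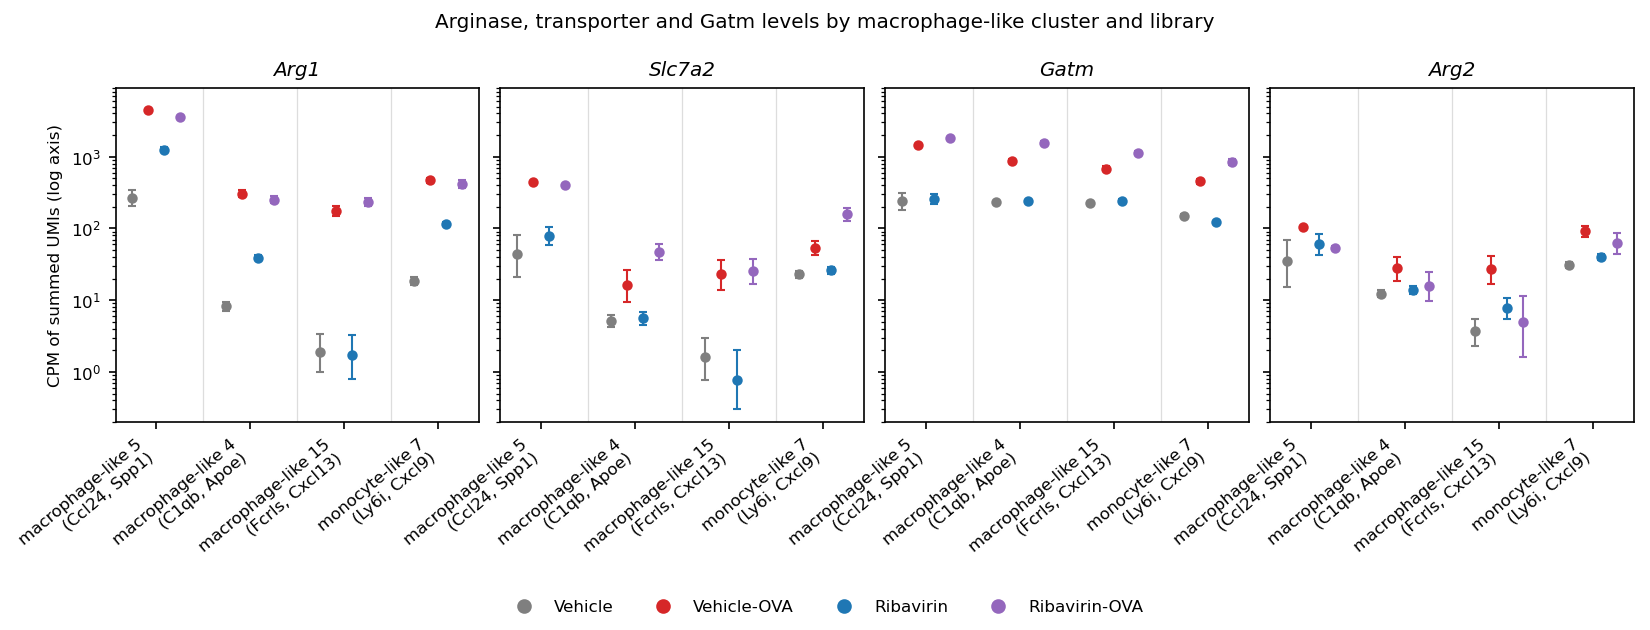
Levels of Arg1, Slc7a2, Gatm and Arg2 (CPM, log axis) in macrophage-like clusters 5, 4 and 15 and in monocyte-like cluster 7, with 1 point per library and exact 95% Poisson intervals. In clusters 4 and 15 the libraries with OVA lie above those without for Arg1, Slc7a2 and Gatm, and Gatm of the libraries without OVA sits between 223 and 255 CPM in all 3 macrophage-like clusters.

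Slc7a2, which imports arginine, followed Arg1 in macrophage-like cells. Slc7a2 was at 4.69 CPM in Vehicle, 407 in Vehicle-OVA, 6.27 in Ribavirin and 351 in Ribavirin-OVA. Its ratio with OVA was 86.7 under vehicle (73.0 to 104) and 56.1 under ribavirin (47.7 to 66.3). Between the libraries without OVA, Ribavirin was 1.34-fold above Vehicle (1.05 to 1.70). A Slc7a2 UMI was found in 22.3% of thinned macrophage-like cells of Vehicle-OVA and 19.4% of Ribavirin-OVA, against 0% of NK cell-like cells in both (up to 5.52% and 3.08% by the interval). Within clusters the ratio was smaller: in cluster 4 it was 3.17 under vehicle (1.75 to 5.38) and 8.40 under ribavirin (5.97 to 11.7). In monocyte-like cells Slc7a2 was at 20.4, 26.8, 21.1 and 31.3 CPM. It was there higher than in macrophage-like cells in the libraries without OVA and lower in those with OVA.

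Gatm, the arginine:glycine amidinotransferase, was present in macrophage-like cells of all libraries and higher with OVA. Gatm was at 231 CPM in Vehicle, 1381 in Vehicle-OVA, 236 in Ribavirin and 1773 in Ribavirin-OVA, with ratios of 5.97 under vehicle (5.81 to 6.13) and 7.52 under ribavirin (7.31 to 7.73). Vehicle and Ribavirin did not differ beyond counting error (ratio 1.02, 0.984 to 1.06), and Ribavirin-OVA was 1.28-fold above Vehicle-OVA (1.26 to 1.30), the reverse of the order of Arg1 and of Slc7a2 (0.864). These orders were not firm, since Gatm was at 0.969 with cells chosen by their own marker UMIs and Slc7a2 at 1.91 without cluster 5. The Gatm ratio was of the same order in cluster 5 (6.03 under vehicle), cluster 4 (3.76) and cluster 15 (3.05). Conventional dendritic cell (cDC)-like cells had 100, 292, 104 and 353 CPM of Gatm in the 4 libraries, and monocyte-like cells 133, 204, 100 and 180 CPM.

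The sequence before the RefSeq start of Gatm is shown because Gatm was present in all libraries and higher with OVA in each of the 3 larger macrophage-like clusters, and that of Ass1 and Odc1 because they did not follow it. Of the 8 members, RefSeq promoters of these 3 were at hand (GRCm38.p6). The 250 bases upstream of the RefSeq start are at chr2:122611278-122611527 on the minus strand for Gatm, chr2:31470020-31470269 on the plus strand for Ass1 and chr12:17544623-17544872 on the plus strand for Odc1. The RefSeq and GENCODE starts differ, and each window reaches into its gene by the GENCODE coordinates given above. They are given 5' to 3', with capitals marking the motif matches described after them.

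Gatm: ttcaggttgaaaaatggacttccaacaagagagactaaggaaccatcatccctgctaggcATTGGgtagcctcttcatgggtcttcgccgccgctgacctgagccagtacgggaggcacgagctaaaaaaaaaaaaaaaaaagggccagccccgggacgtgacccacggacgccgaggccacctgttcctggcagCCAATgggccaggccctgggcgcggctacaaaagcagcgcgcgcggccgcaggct
Ass1: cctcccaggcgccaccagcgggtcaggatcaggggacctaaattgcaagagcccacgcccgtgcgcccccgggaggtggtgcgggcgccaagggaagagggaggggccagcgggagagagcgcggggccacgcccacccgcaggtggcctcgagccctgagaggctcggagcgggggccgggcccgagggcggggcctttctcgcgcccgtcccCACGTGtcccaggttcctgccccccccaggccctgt
Odc1: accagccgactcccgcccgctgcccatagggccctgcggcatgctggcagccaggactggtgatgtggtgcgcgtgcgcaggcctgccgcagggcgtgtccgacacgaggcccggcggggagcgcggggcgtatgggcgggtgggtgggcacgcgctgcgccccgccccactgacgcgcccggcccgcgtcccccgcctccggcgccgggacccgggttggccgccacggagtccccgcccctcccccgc

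Searched on both strands were the CCAAT box (letters CCAAT), the E-box (letters CACGTG) and the TATA box (letters TATAAA), which do not overlap each other here. The Gatm promoter held 2 CCAAT boxes, the Ass1 promoter 1 E-box, and the Odc1 promoter none of the motifs. By the GENCODE coordinates the E-box lies inside the Ass1 gene. Of 32851 RefSeq promoters of this length, 33.8% held the CCAAT box, 6.02% the E-box and 12.4% the TATA box. The GC content was 59.2% for Gatm, 75.6% for Ass1 and 80.0% for Odc1. A match describes letters in this window and is not a binding site.

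Arg1, Slc7a2 and Gatm were also found in the same cells. Of thinned macrophage-like cells of Vehicle-OVA, Slc7a2 was found in 27.3% of those with Arg1 and 7.83% of those without, and Gatm in 58.7% and 41.9%. In Ribavirin-OVA the shares were 24.3% and 8.69% for Slc7a2 and 70.2% and 58.1% for Gatm. Without OVA, only 21 thinned cells of Vehicle and 66 of Ribavirin held Arg1, and 1 of them in each library held Slc7a2. Gatm was found there in 23.8% of cells with Arg1 and 19.7% without in Vehicle, and in 18.2% and 18.9% in Ribavirin. Nos2 was found in 6.12% of cells with Arg1 and 2.35% of cells without in Vehicle-OVA, and 90 of the 102 cells with a Nos2 UMI also held Arg1. These are cells of 1 library each and were not compared by a test.

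The other members showed smaller or library-specific differences in macrophage-like cells. Arg2 was at 10.6, 97.0, 14.2 and 47.8 CPM, a ratio of 9.15 under vehicle (8.10 to 10.4) and 3.37 under ribavirin (2.97 to 3.83), the latter 0.849 without cluster 5. Nos2 was at 0.895, 60.4, 2.09 and 11.4 CPM, a ratio of 67.5 (45.5 to 105) and 5.48 (4.01 to 7.60). It came from few cells: 1 of 2680, 102 of 1982, 4 of 2327 and 11 of 1519 thinned cells held a Nos2 UMI. Without thinning the highest cell held 6, 60, 18 and 38 Nos2 UMIs. The Arg2 and Nos2 of Vehicle-OVA lay beside more neutrophil RNA, whose part in them was not tested: the 15 neutrophil markers, all detected in each library, summed to 676, 2961, 1101 and 984 CPM in macrophage-like cells. The Nos2 to S100a8 ratio was 0.114 in macrophage-like and 0.00693 in neutrophil-like cells of Vehicle-OVA, and the Nos2 to Csf3r ratio was 0.429 and 0.107. Odc1 was at 125, 188, 120 and 157 CPM, with ratios of 1.51 and 1.30. Asl was at 27.5, 32.1, 30.7 and 28.4 CPM, with ratios of 1.17 (1.05 to 1.30) and 0.925 (0.824 to 1.04).

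Ass1, which makes argininosuccinate from citrulline, was the member that moved in opposite directions in macrophage-like cells. Ass1 was at 64.0 CPM in Vehicle, 92.8 in Vehicle-OVA, 74.9 in Ribavirin and 40.4 in Ribavirin-OVA, a ratio of 1.45 under vehicle (1.36 to 1.55) and 0.540 under ribavirin (0.494 to 0.589). The direction under vehicle turned under 4 of the other ways of defining or clustering the class, with ratios from 0.552 to 0.935. In monocyte-like cells Ass1 was at 185, 108, 162 and 54.4 CPM and was lower with OVA in both pairs, with ratios of 0.581 (0.522 to 0.645) and 0.335 (0.286 to 0.391). In cDC-like cells Ass1 was at 110, 102, 114 and 82.7 CPM, and in neutrophil-like cells at 2.47, 1.34, 2.66 and 1.23 CPM, below every class named in this paragraph.

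In macrophage-like cells, 5 of the 8 members (Arg1, Arg2, Nos2, Slc7a2 and Gatm) were 2-fold or more higher with OVA in both pairs on the log2(CPM + 1) scale and none was 2-fold lower in both, against 5.33% of 11982 tested genes higher in both and 2.13% lower in both. The 8 genes were chosen with earlier results of these data known, so that the share over all genes is no test of them. Under vehicle alone the same 5 were higher (9.94% of all genes), and under ribavirin alone too (7.69%). Between Vehicle and Ribavirin, Arg1 alone was 2-fold or more higher (0.634% of all genes). Between the OVA libraries, 3 members, Arg2, Nos2 and Ass1, were 2-fold or more lower in Ribavirin-OVA (1.22% of all genes). Over all genes the median log2 ratio was 0.20 (vehicle) and 0.23 (ribavirin). Of all genes past 2-fold, 70.8% were higher in the vehicle pair and 72.1% in the ribavirin pair on total UMIs, and 48.9% and 42.2% on median-of-ratios size factors, where 5 members were again higher in each pair (6.38% and 4.00% of all genes) and 1 was lower in the ribavirin pair (5.47% of all genes).

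**Figure D3:**
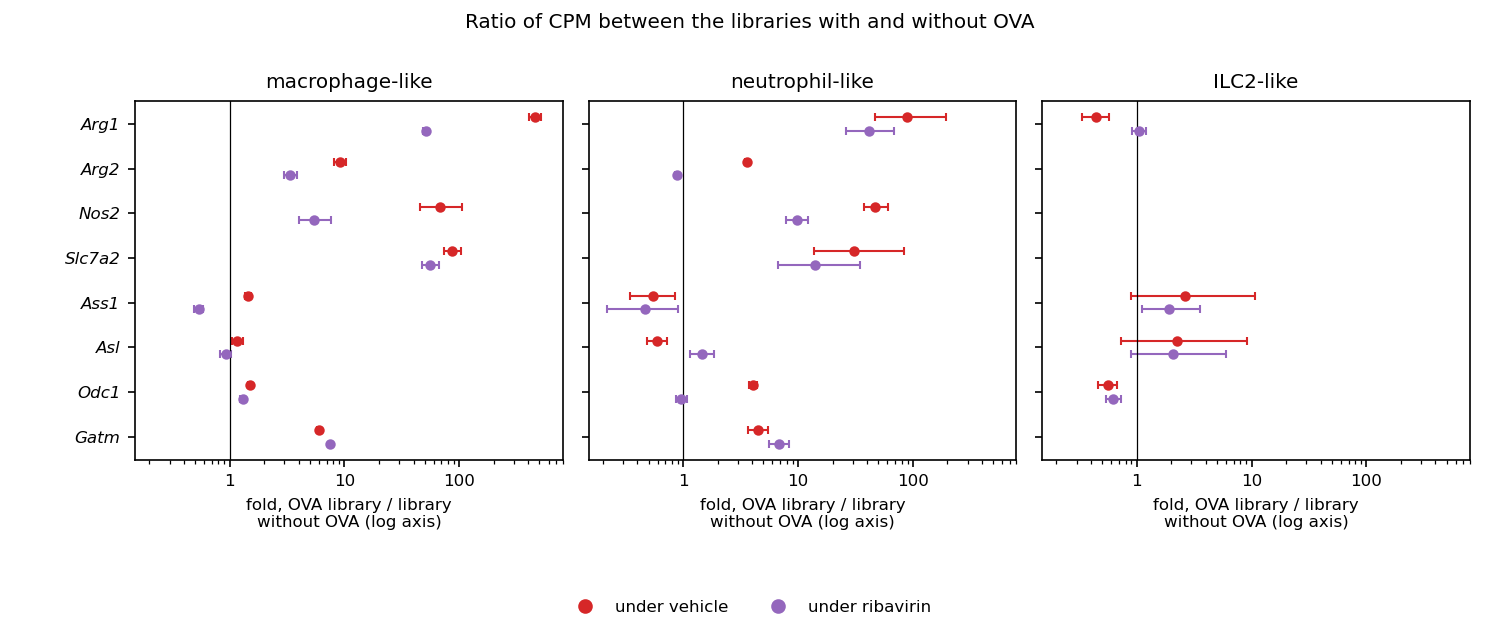
Ratios of OVA to no OVA (log axis) for the 8 genes in macrophage-like, neutrophil-like and ILC2-like cells, under vehicle and under ribavirin, with exact 95% conditional binomial intervals and with pairs left out that held under 10 UMIs in all or none in 1 library. Arg1 in macrophage-like cells reaches 458 under vehicle and 51.0 under ribavirin, and Arg2 in neutrophil-like cells lies on both sides of 1.

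Monocyte-like cells had Arg1 as well, at 16.4 CPM in Vehicle, 228 in Vehicle-OVA, 94.2 in Ribavirin and 90.02 in Ribavirin-OVA. The ratio was 13.9 under vehicle (12.1 to 15.95) and 0.956 under ribavirin (0.839 to 1.09). The class was made of clusters 7 and 16 in different shares, and cluster 7, led by Ly6i and Cxcl9, held 83.1%, 41.3%, 76.0% and 18.6% of its cells. In cluster 7 alone Arg1 was at 18.6, 470, 117 and 421 CPM, and both OVA libraries were then above both libraries without OVA. Without OVA, Arg1 was higher in monocyte-like than in macrophage-like cells, the macrophage-like level being 0.544 of the monocyte-like one in Vehicle (0.457 to 0.649) and 0.660 in Ribavirin (0.612 to 0.713).

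Among whole classes without OVA, the highest Arg1 was that of ILC2-like cells, a single cluster of 105, 101, 106 and 205 cells, although the 65 cells of macrophage-like cluster 5 in Ribavirin were higher (1258 CPM). Arg1 was there at 331 CPM (276 to 393), 145 CPM (119 to 175), 461 CPM (405 to 522) and 485 CPM (454 to 517). A UMI of Arg1 was found in 25.0% (17.03 to 34.5), 11.6% (5.92 to 19.8), 31.1% (22.5 to 40.9) and 18.6% (13.4 to 24.7) of thinned ILC2-like cells, and without thinning in 57.1%, 32.7% and 54.7% of the cells of the first 3 libraries and 82 of the 205 cells of Ribavirin-OVA. In Vehicle the macrophage-like Arg1 level was 0.0269 of the ILC2-like one (0.0217 to 0.0336), and in Vehicle-OVA it was 28.1 times it (23.3 to 34.3). Taken at face value, Arg1 of the class was lower with OVA under vehicle (ratio 0.439, 0.337 to 0.571), and under ribavirin the ratio was 1.05 (0.913 to 1.21).

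The ILC2-like cluster, however, did not hold the same cells in every library. T cell markers summed to 654, 2901, 599 and 2489 CPM in it, and basophil markers to 135, 1251, 468 and 1061 CPM, with Mcpt8, Fcer1a and Prss34 at 0 in Vehicle. A UMI of Cd3d, Cd3e or Cd3g was found in 28 of the 105 cells of Vehicle, 55 of 101 of Vehicle-OVA, 24 of 106 of Ribavirin and 149 of 205 of Ribavirin-OVA. Among the cells with no Cd3 UMI and under 2 UMIs of the basophil genes Mcpt8, Cd200r3 and Fcer1a, Arg1 was at 299 CPM in 77 cells of Vehicle, 447 CPM in 32 cells of Vehicle-OVA, 317 CPM in 71 cells of Ribavirin and 424 CPM in 35 cells of Ribavirin-OVA. In these cells the direction under vehicle was the opposite one, with a ratio of 1.496 (1.05 to 2.13), and the ratio under ribavirin was 1.34 (0.968 to 1.84). Cells with a Cd3 UMI had 404, 89.9, 826 and 514 CPM of Arg1, and in Ribavirin-OVA they held 868 of the 938 Arg1 UMIs of the cluster. These cells were not alike between the libraries either. They had 25.2, 329, 45.0 and 259 CPM of Cd3e and 50.5, 607, 214 and 1044 CPM of Il13. The selection of cells by Cd3 and basophil UMIs used counts without thinning and was made after the levels had been seen.

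**Figure D4:**
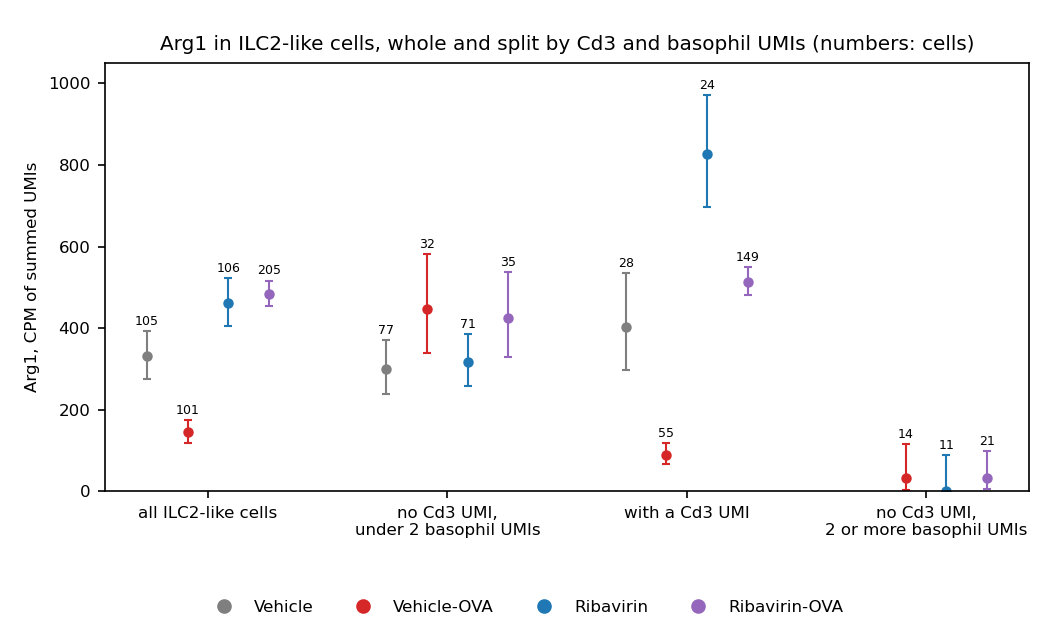
Arg1 (CPM with exact 95% Poisson intervals) in ILC2-like cells by library, for all cells of the cluster, for those with a Cd3 UMI, and for those with no Cd3 UMI and either under 2 or 2 or more basophil UMIs. The number above each point counts its cells. All cells give 145 CPM in Vehicle-OVA against 331 CPM in Vehicle, whereas the cells without Cd3 or basophil UMIs give 447 against 299 CPM.

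Macrophage genes in ILC2-like cells did not all go one way with OVA. The 12 macrophage markers summed to 377, 228, 349 and 315 CPM, with Folr2 at 0 in all 4 libraries and Mertk at 0 in 3. In macrophage-like cells the same markers summed to 56645, 20006, 51920 and 24922 CPM and were lower with OVA as well. Their sum in ILC2-like cells is therefore no measure of the amount of macrophage RNA there. Ccl24 had 1, 42, 1 and 192 UMIs and Spp1 0, 252, 6 and 97 UMIs in ILC2-like cells, both leading genes of macrophage-like cluster 5. The Arg1 to Ccl24 ratio was 2.57 and 4.89 in Vehicle-OVA and Ribavirin-OVA against 1.31 and 1.54 in macrophage-like cells, and the Arg1 to Spp1 ratio was 0.429 and 9.67 against 1.09 and 1.03. In Vehicle-OVA the ratios thus lay on opposite sides of those of macrophage-like cells, and the part of macrophage RNA in the ILC2-like Arg1 was not tested. Odc1 was also high in ILC2-like cells, at 608, 339, 431 and 271 CPM, and was lower with OVA in both pairs (0.557, 0.465 to 0.667, and 0.628, 0.537 to 0.736). Of the 8 members, 5 had 50 or more UMIs in the class, and none but Gatm was 2-fold or more higher with OVA in both pairs, against 11.8% of 7189 genes. Gatm passed that minimum only through the OVA libraries, with 6 and 45 UMIs, and so had to differ, and nothing is read from its call. It had no UMI in ILC2-like cells of Vehicle and Ribavirin and 8.06 and 23.2 CPM in Vehicle-OVA and Ribavirin-OVA, at least 1.06-fold and 4.17-fold higher against the 3 counts per library that a count of 0 allows.

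In some other classes of the OVA libraries, Arg1 lay near its share in NK cell-like cells or came from few cells. In neutrophil-like cells Arg1 was at 0.517 CPM in Vehicle, 46.1 in Vehicle-OVA, 0.968 in Ribavirin and 39.9 in Ribavirin-OVA. The thinned share was 3.99% and 3.29% in the OVA libraries, beside 3.08% and 2.54% of NK cell-like cells. These libraries held only 67 and 119 NK cell-like cells, so that their shares are imprecise. The Arg1 to Ccl24 ratio of 1.51 and 1.53 was close to the 1.31 and 1.54 of macrophage-like cells, whereas the Arg1 to Spp1 ratio of 0.0772 and 0.172 was below the 1.09 and 1.03 there. In epithelial cell-like cells Arg1 was at 429 CPM in Vehicle-OVA, but 3 of the 96 cells held 1075 of the 1138 UMIs and 1 of them 677. In endothelial cell-like cells of Ribavirin-OVA, 1 cell held 74 of the 80 UMIs.

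To examine nitric oxide synthase and the mitochondrial arginase in neutrophils, UMIs were summed over the 6693, 10473, 6431 and 2574 neutrophil-like cells (median 2263, 2802, 2750 and 2936 UMIs). Nos2 was at 4.02 CPM in Vehicle, 190 in Vehicle-OVA, 4.99 in Ribavirin and 48.8 in Ribavirin-OVA. Both OVA libraries were above both libraries without OVA, and Vehicle-OVA was the highest. The ratio was 47.2 under vehicle (37.3 to 60.6) and 9.80 under ribavirin (7.89 to 12.3), and Ribavirin-OVA was at 0.257 of Vehicle-OVA (0.233 to 0.284). Vehicle and Ribavirin did not differ beyond counting error (1.24, 0.907 to 1.70).

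Few neutrophil-like cells held Nos2. After thinning, a Nos2 UMI was found in 0.307% (0.187 to 0.473), 11.2% (10.6 to 11.9), 0.467% (0.315 to 0.665) and 4.53% (3.74 to 5.44) of the cells, and without thinning in 0.792%, 19.0%, 1.17% and 8.43%. In NK cell-like cells no thinned cell of any library held Nos2, which allows up to 5.52% in Vehicle-OVA, with its few cells, and at most 3.08% in the others. Without thinning, 0%, 2.99%, 0.436% and 0% of NK cell-like cells held Nos2, at 0, 11.5, 1.01 and 0 CPM, the second value from 5 UMIs in 67 cells. Neutrophil-like cells held 79.1% of all Nos2 UMIs in Vehicle-OVA and 52.2% in Ribavirin-OVA. In the libraries without OVA the largest share of Nos2 was instead in monocyte-like cells, with 65.3% of the UMIs in Vehicle and 48.8% in Ribavirin.

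Nos2 differed among the 9 neutrophil-like clusters. In cluster 1, led by Csf3, Ccl3 and Cxcl3, Nos2 was at 16.2, 252, 48.2 and 175 CPM, and in cluster 21, led by the interferon-stimulated genes Rsad2 and Ifit1, it was at 396 CPM in Vehicle-OVA and 219 CPM in Ribavirin-OVA. In cluster 3, led by Siglecf and Ltc4s, Nos2 was at 0.748, 16.04, 0.936 and 6.56 CPM. Cluster 1 held 3.20%, 52.7%, 1.97% and 16.05% of the neutrophil-like cells and 61.0% and 41.7% of the Nos2 UMIs of Vehicle-OVA and Ribavirin-OVA. Of its cells, 87.98% came from Vehicle-OVA. The Nos2 level of Ribavirin-OVA relative to Vehicle-OVA varied among the clusters, at 0.692 in cluster 1 (0.593 to 0.803), 0.553 in cluster 21 (0.402 to 0.743), 0.432 in cluster 2 (0.341 to 0.543) and 0.409 in cluster 3 (0.169 to 0.934), but 0.134 in cluster 23 (0.0656 to 0.253), led by Ngp and Camp. The last lies below the 0.257 of the whole class and the others above it, although the interval of cluster 3 takes it in.

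**Figure D5:**
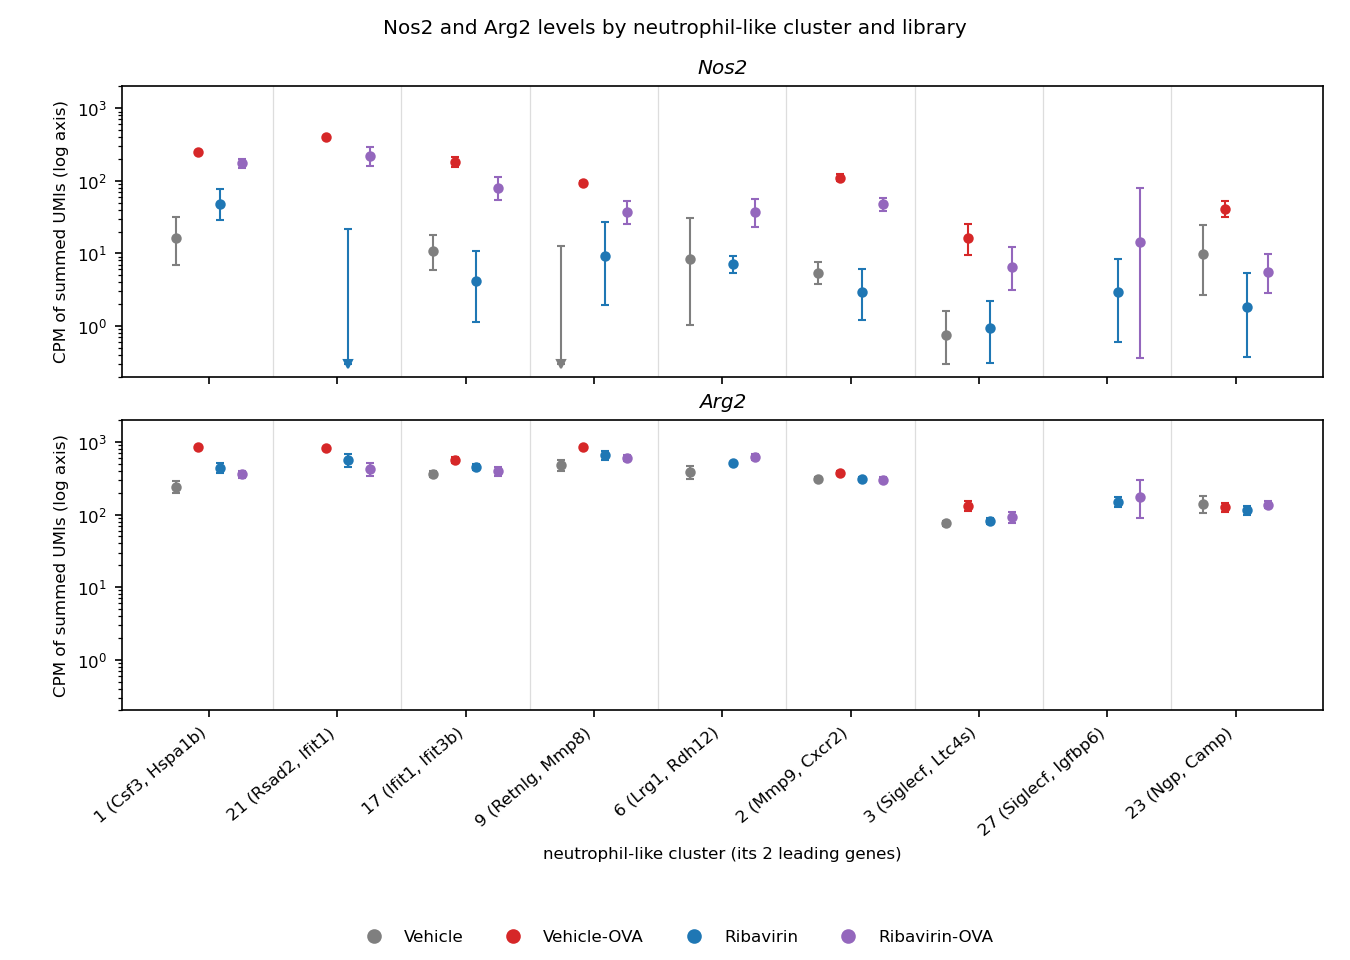
Levels of Nos2 and Arg2 (CPM, log axis, exact 95% Poisson intervals) in the 9 neutrophil-like clusters, with 1 point per library of at least 20 cells and a triangle at the bottom for a library with no UMI. Nos2 of Vehicle-OVA is highest in cluster 21 at 396 CPM and in cluster 1 at 252 CPM and lowest in cluster 3 at 16.04 CPM.

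The ratio of Nos2 with OVA held within clusters as well. Under vehicle it was 15.5 in cluster 1 (7.88 to 36.0), 20.3 in cluster 2 (14.3 to 29.5) and 21.4 in cluster 3 (8.15 to 66.0). Under ribavirin it was 3.62 (2.23 to 6.25), 15.97 (7.50 to 40.9) and 7.00 (2.18 to 26.1). Of the 9 clusters, 5 came to over 85% from 1 library, and without them the ratio over the class was 23.8 under vehicle and 13.6 under ribavirin.

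Arg2 was the arginase of neutrophil-like cells in every library. Arg2 was at 205 CPM in Vehicle, 740 in Vehicle-OVA, 325 in Ribavirin and 287 in Ribavirin-OVA. Vehicle-OVA alone stood out, and Ribavirin-OVA lay between Vehicle and Ribavirin. The ratio with OVA was 3.61 under vehicle (3.49 to 3.74) and 0.883 under ribavirin (0.843 to 0.924), and Ribavirin was 1.59-fold above Vehicle (1.52 to 1.65). After thinning, 18.1%, 45.9%, 27.5% and 24.6% of the cells held Arg2 (33.8%, 70.4%, 51.8% and 46.6% without thinning), against 0.621%, 6.15%, 0% and 0% of NK cell-like cells. Neutrophil-like cells held 79.6%, 88.2%, 86.04% and 69.7% of all Arg2 UMIs.

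The Arg2 difference under vehicle was smaller within clusters. The ratio was 3.53 in cluster 1 (2.94 to 4.26), but 1.54 in cluster 17 (1.35 to 1.75), 1.20 in cluster 2 (1.12 to 1.30) and 1.75 in cluster 3 (1.45 to 2.09). Cells with Nos2 and cells without held Arg2 to a similar share in Vehicle-OVA, where 47.1% of thinned neutrophil-like cells with Nos2 and 45.7% of those without held Arg2. In Ribavirin-OVA the shares were 33.03% and 24.2%. In Vehicle-OVA, Arg2 was also at 39.1 CPM in NK cell-like, 26.8 CPM in B cell-like and 16.1 CPM in plasmacytoid dendritic cell (pDC)-like cells, all of which had at most 6.32 CPM in the other libraries.

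Odc1 and Gatm were higher in neutrophil-like cells of Vehicle-OVA as well. Odc1 was at 49.6, 201, 54.0 and 52.1 CPM, a ratio of 4.05 under vehicle (3.77 to 4.36) and 0.964 under ribavirin (0.863 to 1.08). Like Arg2, it was high in Vehicle-OVA alone. Gatm was at 6.20, 27.6, 6.54 and 44.9 CPM and Slc7a2 at 0.345, 10.5, 0.387 and 5.49 CPM, with higher levels in both OVA libraries. As for Arg1, the share of free RNA in these low levels was not tested. Asl was at 10.9, 6.47, 8.37 and 12.2 CPM, a ratio of 0.596 (0.487 to 0.729, 1.01 on median-of-ratios size factors) and 1.46 (1.14 to 1.86).

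In neutrophil-like cells, 4 of the 8 members (Arg1, Nos2, Slc7a2 and Gatm) were 2-fold or more higher with OVA in both pairs and none was 2-fold lower in both, against 2.12% of 11201 tested genes higher and 1.83% lower. Here too, the 8 genes had been chosen with earlier results of these data known. Arg1, with 9 and 20 UMIs in Vehicle and Ribavirin, and Slc7a2, with 6 and 8, passed the minimum of 50 UMIs only through the OVA libraries and so had to differ, which leaves Nos2 and Gatm as the 2 members whose call did not follow from the minimum. Under vehicle alone 6 members were higher (6.64% of all genes, beside 31.3% lower), the other two being Arg2 and Odc1, and under ribavirin alone the same 4 (8.39%), both counts with Arg1 and Slc7a2 included. Between the OVA libraries 3 members, Arg2, Nos2 and Odc1, were 2-fold or more lower in Ribavirin-OVA (2.55% of all genes, beside 30.6% higher), and between Vehicle and Ribavirin none was 2-fold higher (1.16%). Over all genes the median log2 ratio was -0.60 in the vehicle pair, 0.29 in the ribavirin pair and 0.75 for Ribavirin-OVA over Vehicle-OVA, so that Nos2, Arg2 and Odc1 went against the bulk of the genes in Vehicle-OVA.

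The bulk of the genes depended on the scale. Of those past 2-fold in neutrophil-like cells, 17.5%, 78.3% and 92.3% were higher in the vehicle pair, the ribavirin pair and Ribavirin-OVA over Vehicle-OVA on total UMIs, and 58.8%, 38.4% and 19.6% on median-of-ratios size factors. On size factors 6 and 4 members were again higher with OVA, Arg1 and Slc7a2 included, against 16.1% of all genes in the vehicle pair and 3.28% in the ribavirin pair, and 5 members in place of 3 were lower in Ribavirin-OVA, against 9.78% of all genes.

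In monocyte-like cells Nos2 was at 11.1 CPM in Vehicle, 27.6 in Vehicle-OVA, 12.3 in Ribavirin and 51.0 in Ribavirin-OVA. Its ratio was 2.49 under vehicle (1.94 to 3.19) and 4.14 under ribavirin (3.31 to 5.17). Here Ribavirin-OVA was the highest library, 1.85-fold above Vehicle-OVA (1.43 to 2.39), in contrast to neutrophil-like and macrophage-like cells. In cluster 7, Nos2 was at 12.6, 53.3, 15.2 and 281 CPM, the last from 62 cells with 165 UMIs.

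Odc1 was high in T cell-like and plasma cell-like cells and differed little between the libraries there. In T cell-like cells Odc1 was at 462, 534, 479 and 419 CPM, and in plasma cell-like cells at 367, 442, 382 and 456 CPM. The highest level was that of cluster 13, left unnamed and led by Tnfrsf4 and Foxp3, with 1014, 1264, 1248 and 812 CPM of Odc1. In neutrophil-like and monocyte-like cells without OVA it was between 49.6 and 88.5 CPM.

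The genes whose pattern was most like that of each member were looked up among 14120 genes, by Pearson's r of log2(CPM + 1) over 49 sums of a class in a library from 13 classes, which share libraries and are not independent. For Arg1 these were Ccl24 (r = 0.81), Edil3 and Mfsd5 (0.73), Ecm1 (0.72) and Slc38a6 (0.69). For Nos2 they were Tnfaip6 (0.91), Olr1 (0.86), Il1rn and Tarm1 (0.85) and Hmox1 (0.84), and for Arg2 Tarm1, Clec4e and Csf3r (0.94), Il1rn and Fpr1 (0.93). For Slc7a2 they were Fn1 (0.92), F7 (0.88) and Tmem26 (0.85), and for Gatm Mrc1 (0.88), Mmp12 (0.87) and Rab3il1 (0.86). Ass1 was most like Rasa4 (0.82), Crip1 (0.81) and Phf11b (0.79), Asl like Gusb (0.78), Dbi (0.77) and Bcat2 (0.75), and Odc1 like Inpp4b (0.81), Rad18 (0.74) and Xlr4b (0.73). Among the members themselves, the highest values were those of Arg2 with Nos2 (0.82) and Slc7a2 with Gatm (0.81), and Arg1 had 0.66 with Slc7a2, 0.53 with Gatm and 0.33 with Arg2.

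Of 45 other genes of the pathway, 33 had enough UMIs in macrophage-like cells, where 4 were 2-fold or more higher with OVA in both pairs and 1 lower, beside the 5.33% and 2.13% of all genes given above. Slc6a8, the creatine transporter, was at 4.65, 30.8, 5.74 and 25.4 CPM. Azin1, which relieves ornithine decarboxylase from antizyme, was at 49.3, 136, 59.7 and 121 CPM. Slc25a15, the mitochondrial ornithine carrier, was at 2.58, 7.75, 2.50 and 9.37 CPM, and Azin2, a relative of Azin1, at 1.22, 4.22, 0.492 and 5.00 CPM. All of these levels were higher in both OVA libraries than in either library without OVA. The UMIs of Azin2 in Vehicle and Ribavirin fell short of the minimum, which it passed only through the OVA libraries. The call of Azin2, counted among the 4, is therefore not independent of that minimum, and nothing is read from it. Ckb, a creatine kinase, was lower with OVA, at 131, 44.3, 155 and 71.1 CPM. The median log2 ratio of the 33 genes was 0.19 under vehicle and 0.06 under ribavirin, beside the 0.20 and 0.23 of all genes.

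In neutrophil-like cells 33 of the 45 genes had enough UMIs as well, 2 were 2-fold or more higher in both pairs and none was lower, beside 2.12% and 1.83% of all genes. Azin1 was at 70.7, 274, 91.5 and 224 CPM. Padi4, which converts arginine of histones to citrulline, was at 10.6, 27.3, 18.5 and 62.5 CPM, and it was highest in Ribavirin-OVA, where Nos2 and Arg2 were below Vehicle-OVA. The median log2 ratio of the 33 genes was -0.37 under vehicle and 0.13 under ribavirin.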

How the data were processed

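For each of the 4 libraries the authors deposited a matrix of whole-number UMI counts per gene and cell barcode, not normalized, made per the labels with Cell Ranger 5.0.0 on mm10 from 3' libraries of CD45+ cells. The labels name magnetic enrichment and the series text fluorescence-activated sorting. The 8 genes and all lists were chosen with earlier results of these data known.

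From the deposited counts, cells passed with 200 or more genes, 500 or more UMIs and mitochondrial UMIs below 10%. Doublets were scored against simulated doublets, and the highest scores were removed up to 0.4% per 1000 barcodes, since the automatic threshold marked too few. This removed 11.2%, 7.51%, 8.41% and 3.94% of the cells (libraries in the order Vehicle, Vehicle-OVA, Ribavirin, Ribavirin-OVA). The libraries held 171873110, 102796247, 168064152 and 91742940 UMIs. The 4 libraries were clustered together (scanpy 1.11.5, leidenalg 0.10.2, 2000 variable genes without the members and pathway genes, 30 principal components, 15 neighbours, resolution 1.0, no correction between libraries). A cluster took the name of its best-scoring class where at least 3 markers of it were detected. The name was withheld where the 10 leading genes held more markers of another class than of its own. It was also withheld at low depth with no own marker among them, or without a positive score. Clusters 13, 30 and 40 stayed unnamed by their leading genes. Their best classes were T cell, macrophage and Siglecf neutrophil, and their cells are not in those class sums. Neutrophil-like takes in the Siglecf and immature neutrophil clusters.

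UMIs were summed per class and library as CPM with exact Poisson intervals, ratios had exact conditional binomial intervals and shares of cells exact Clopper-Pearson intervals (scipy 1.17.1, 95%). Counting intervals do not cover differences between mice. Gene-wide counts took log2 ratios with a pseudocount of 1 CPM over genes with at least 50 UMIs, called at 2-fold. The pathway genes named are those 2-fold or more in the same direction in both pairs, and the likeness rule took the 5 genes of highest r for Arg1, Arg2 and Nos2 and 3 for the others, among genes with at least 200 UMIs. The ratio script was tested on simulated counts. Depth, mitochondrial, doublet, clustering, naming and scaling alternatives were tried. No p-value was computed.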

Additional observations from a re-analysis of the deposited data

Results flagged for a closer look

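With 1 library per group, the following pairs moved one way under vehicle and the other way under ribavirin, and in no case was the difference between the pairs tested. They are 4 of 32 pairs of a gene and a set of cells looked at. Arg2 over all cells had a ratio of OVA to no OVA of 9.49 under vehicle and 0.840 under ribavirin, beside a share of neutrophil-like cells of 29.3%, 64.7%, 34.6% and 30.4% (order Vehicle, Vehicle-OVA, Ribavirin, Ribavirin-OVA). Arg2 in neutrophil-like cells had 3.61 and 0.883, and without the clusters of which over 85% came from 1 library the ratio under ribavirin was 1.14. Ass1 in macrophage-like cells had 1.45 and 0.540, and Asl in neutrophil-like cells had 0.596 and 1.46.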

How the results depend on the processing

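Arg1 in macrophage-like cells and Nos2 in neutrophil-like cells stayed higher with OVA in both pairs under all alternatives run, with ratios of 16.5 to 813 and 2.87 to 175 for Arg1 and 20.7 to 80.0 and 7.83 to 13.6 for Nos2 (vehicle, then ribavirin). Of the alternative values of the main results, 57 moved by less than counting error (counts of genes by at most 1.5 times), 46 by more and 4 turned, and the cause was not tested.

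Arg1 in macrophage-like cells, under vehicle, under ribavirin and for Ribavirin-OVA over Vehicle-OVA in this order, was 333, 43.4 and 0.808 with doublets kept, 388, 58.0 and 0.762 at resolution 2.0, 813, 175 and 0.8996 with each library clustered alone, 343, 42.0 and 0.624 with classes from marker UMIs of the single cell, 302, 37.7 and 0.804 with the members allowed among the variable genes, 388, 42.4 and 0.751 on size factors, 36.3, 7.69 and 0.996 without cluster 5, and 16.5, 2.87 and 0.817 in cluster 5 alone. With mitochondrial UMIs under 5% the last of these were 55.8 and 0.839, and averaging CPM over single cells the value under ribavirin was 42.5.

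Nos2 in neutrophil-like cells was 80.0, 7.83 and 0.140 on size factors, 20.7, 12.3 and 0.479 in clusters named neutrophil only, and 23.8, 13.6 and 0.286 without clusters mostly of 1 library. Ribavirin-OVA over Vehicle-OVA was 0.229 with at least 2000 UMIs and 0.318 averaging CPM over single cells.

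Arg1 in ILC2-like cells turned: it was 1.66, 0.737 and 0.555 by single-cell markers and 1.496, 1.34 and 0.947 without cells with Cd3 or basophil UMIs. On size factors it was 0.330 and 0.803, and averaging CPM over single cells Ribavirin-OVA over Vehicle-OVA was 2.33. Each library clustered alone gave no ILC2-like cells in Ribavirin and so no value under ribavirin.

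Ass1 in macrophage-like cells under vehicle turned to 0.935 at resolution 2.0, 0.552 with each library alone (1.35 for Ribavirin-OVA over Vehicle-OVA), 0.895 by single-cell markers and 0.869 with the members allowed. Other values that turned were Gatm in macrophage-like cells (0.969 by single-cell markers, Ribavirin-OVA over Vehicle-OVA), Ass1 in neutrophil-like cells under vehicle (1.32 by single-cell markers), Asl under vehicle on size factors (0.990 in macrophage-like, 1.01 in neutrophil-like cells), Gatm in neutrophil-like cells (0.886 on size factors, Ribavirin-OVA over Vehicle-OVA), Arg2 in neutrophil-like cells under ribavirin (1.14 without clusters mostly of 1 library), and, without cluster 5, Slc7a2 (1.91, Ribavirin-OVA over Vehicle-OVA) and Arg2 (0.849 under ribavirin) in macrophage-like cells.

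The count of 4 pathway genes higher in macrophage-like cells, Azin2 included, was 1 with a pseudocount of 10 CPM. The count of 2 in neutrophil-like cells was 1 with that pseudocount and 1 on size factors. The scale of the classes shifted by -0.76 and 0.32 (log2) in neutrophil-like, 0.24 and 0.27 in macrophage-like and 0.41 and 0.39 in ILC2-like cells. Alternatives without cluster 5, without clusters mostly of 1 library and without Cd3 or basophil UMIs, and size factors for the pathway genes, were chosen after seeing the data. No paired analysis was possible because each group had 1 library. The 101 to 205 ILC2-like cells per library and the 24 and 65 cells of cluster 5 without OVA limit what their levels can show.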
